A study of Mus musculus with 4 samples.

Results

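The genes described here encode the bone morphogenetic proteins (BMPs), the growth and differentiation factors (GDFs), the TGF-betas and Nodal, with their receptors, Smads, target genes and inhibitors. They were 48 mouse genes chosen by name, of which 46 were measured, out of 17277 named genes on the array. Gdf11 and Smad7 had no transcript that matched by accession and were not analysed here. Where a gene had more than 1 transcript, the one with the highest mean log2 level over the 4 arrays stood for it, which concerned only Tgfbr2. Testis RNA of male mice, taken at postnatal day 9, was hybridised to 1 control array and 3 arrays labelled Dmrt1 KO. All 4 samples carry the genotype label DHH-cre, the control being Cre-negative and the knockouts Cre-positive. The comparison asks how testis expression differs when Dmrt1, which encodes a DM domain transcription factor, is conditionally deleted. Because the only control lacks Cre, an effect of Cre itself cannot be told apart from loss of Dmrt1. Desert hedgehog (Dhh) is a Sertoli cell gene in the testis, so a Cre under its control acts in these nurse cells of the tubules, while germ cells also express Dmrt1. Not given in the sources used here are the targeted Dmrt1 allele, the mouse strain and whether each knockout sample was a separate animal. The p-values thus rest on the spread between arrays, and that spread may be technical only.

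Ligands of this family are secreted dimers that bring together type I and type II receptor kinases on the receiving cell. BMP-type receptors phosphorylate Smad1 and Smad5, while TGF-beta, activin and Nodal receptors phosphorylate Smad2 and Smad3, and both groups enter the nucleus with Smad4. Inhibitory Smads and secreted antagonists limit the signal, and the Id genes are well-known targets of the BMP branch. In the testis the family is known for roles in germ cell maintenance and in the junctions between Sertoli cells.

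None of the 46 measured members passed the test for a difference between knockout and control, at an adjusted p under 0.05 with limma, in either direction. Over all 25631 transcripts, limma called 0.655% in either direction, 0.499% lower and 0.156% higher in the knockouts, so a count of 0 among 46 genes lies near the background. At an unadjusted p under 0.05, 1 member was higher (Tgfb2) and 0 were lower, against 3.15% and 3.27% of all transcripts. The lowest adjusted p of any member was 0.592, also that of Tgfb2. On the log2 scale the differences, knockout minus control, ran from -0.53 for Tgfb1 to 0.71 for Tgfb2. Their median was 0.10, and the median over all transcripts was 0.00. The members' median was 0.03 without knockout replicate 2 and 0.03 with the dimmest 25% of transcripts removed. Differences were above 0 for 29 members and below 0 for 17, beside 50.6% of all transcripts above 0.

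The 95% interval of the difference lay inside 2-fold either way for 32 of the 46 members. The interval reached 2-fold higher for 9 members and 2-fold lower for 5, so for these members a 2-fold change lay within the interval. The standard errors ran from 0.25 to 0.42 on the log2 scale. The smallest difference that limma called over all transcripts was 1.35, against 0.71 for the largest among the members. All 3 knockout arrays lay above the control for 17 members and below it for 9, beside 25.6% and 24.1% of all transcripts. In the other 20 members the control lay within the range of the knockouts. For 29 members the 3 knockout arrays differed among themselves by more than their mean differed from the control, as did 75.4% of all transcripts.

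**Figure D1:**
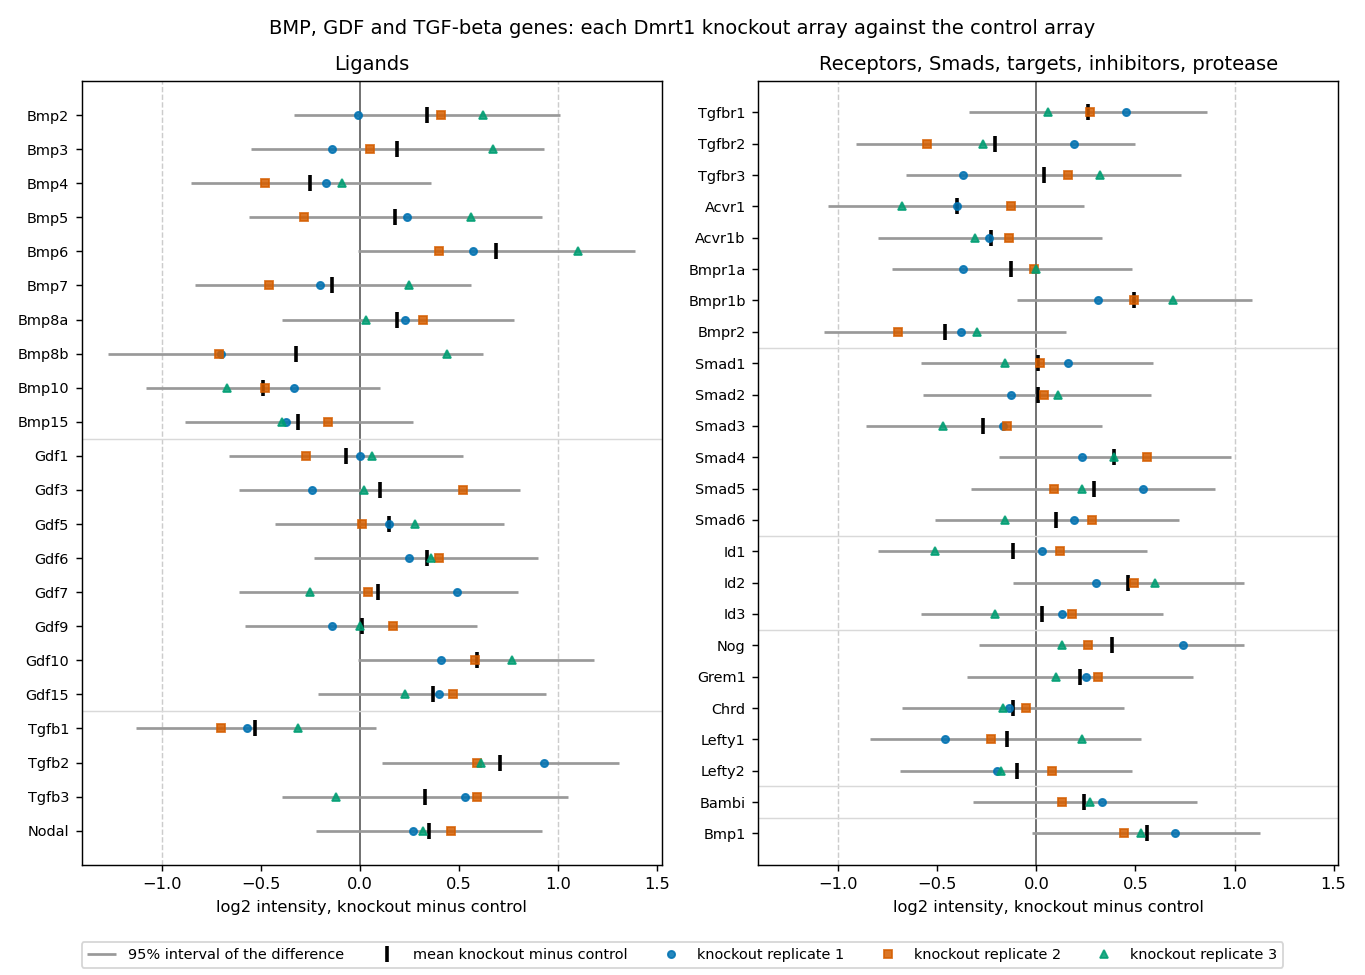
Log2 intensity of each knockout array minus the control array for the 46 measured members, with ligands on the left and all other roles on the right. Symbols mark the 3 knockout replicates, the black tick marks the mean difference and the grey line its 95% interval from limma, and dashed lines mark 2-fold. The differences lie between -0.53 and 0.71, and 45 of the 46 intervals hold 0, the exception being Tgfb2.

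Dmrt1 and markers of cell types were read on the same arrays. Dmrt1 (NM_015826) itself was at an intensity of 18252 in the control, and the knockouts were at 9623, 10633 and 12959. All 3 knockout arrays lay below the control, with a difference of -0.73 ± 0.27 (SE) on the log2 scale that did not pass (limma, adjusted p = 0.586). Whether the probes lie in the deleted part is not known here, so the value does not check the labels. The summed intensity of the 9 measured of 10 Sertoli cell markers was 127690 in the control and 93475 to 99378 in the knockouts, with a median difference of -0.09 on the log2 scale over the list. Cldn11 was the 1 marker of any list that passed, lower. Summed intensities were 69004 against 70260 to 109070 for 6 of 6 Leydig cell markers and 92803 against 94974 to 118796 for 6 of 6 germ cell markers. They were 15270 against 19126 to 23733 for 7 of 8 macrophage markers, 23875 against 27929 to 29157 for 6 of 6 endothelial markers and 24221 against 20691 to 24884 for 5 of 5 peritubular myoid markers. For cells from outside the tubules and interstitium, they were 2375 against 3063 to 4311 for 5 of 5 adipose markers, 24326 against 26509 to 37865 for 3 of 4 erythroid markers and 1809 against 1488 to 1738 for 4 of 4 skeletal muscle markers. The median differences were 0.36 for the Leydig, 0.20 for the germ cell, 0.51 for the macrophage, 0.19 for the endothelial and -0.09 for the peritubular myoid list, and 0.10, 0.13 and -0.13 for the adipose, erythroid and skeletal muscle lists. Every measured Sertoli, Leydig and germ cell marker lay above the dimmest 25% of transcripts. RMA intensities do not reach 0, so no marker could be at 0. The part of these markers in the members' values was not tested. In whole-testis RNA, fewer cells of a type and less RNA per cell cannot be told apart.

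Among the TGF-beta ligands, Tgfb2 stood higher and Tgfb1 lower on every knockout array, and neither passed. Tgfb2 (NM_009367) encodes TGF-beta 2, a secreted ligand that needs the co-receptor betaglycan for efficient binding. Its intensity was 1570 in the control and 3001, 2365 and 2405 in the knockouts. All 3 knockouts exceeded the control by at least 1.5-fold, which was so for 1 of the 46 members, beside 1.6% of all transcripts higher and 1.88% lower by that measure. The difference was 0.71 ± 0.27 (SE) on the log2 scale, or 1.64-fold, with a 95% interval of 0.11 to 1.31 (limma, unadjusted p = 0.0243, adjusted p = 0.592). The 250 bases before the annotated start of Tgfb2, the member with the smallest p, are shown from RefSeq (GRCm38.p6, chr1:186705990-186706239, minus strand, written 5′ to 3′), with the TATAAA box in capitals, 31 bases before the start.
Tgfb2: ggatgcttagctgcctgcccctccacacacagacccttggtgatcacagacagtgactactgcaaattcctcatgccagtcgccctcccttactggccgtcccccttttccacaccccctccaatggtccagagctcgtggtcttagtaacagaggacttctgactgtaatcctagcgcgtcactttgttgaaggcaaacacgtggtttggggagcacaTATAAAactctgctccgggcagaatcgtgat
Promoter windows of that length were found for 29 members, which held 36 windows because some genes have several starts. TATAAA, searched on both strands, was in 3 of the 36 windows (of Tgfb2, Bmp15 and Bmpr1b) and in 12.4% of the 32851 windows of all genes. The letters ACAATGT, the core of the site that DMRT1 binds in mouse, were in 0 of the 36 windows on either strand and in 2.56% of all windows.

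Tgfb1 (NM_011577) encodes TGF-beta 1, widely made by immune and stromal cells. Its intensity was 2476 in the control and 1670, 1522 and 1999 in the knockouts, all 3 below the control. The difference was -0.53 ± 0.27, with an interval of -1.13 to 0.08 (adjusted p = 0.858). Tgfb3 (NM_009368) encodes the third TGF-beta, which is known in rat testis for opening Sertoli cell junctions. It was at 12527 in the control and at 18038, 18815 and 11518 in the knockouts, so replicates 1 and 2 lay above the control and replicate 3 below it. Its difference was 0.33 ± 0.32 (adjusted p = 0.996), and it was 0.23, 0.20 and 0.56 without replicates 1, 2 and 3 in turn. Nodal (NM_013611), which signals through Smad2 and Smad3 in the early embryo, was at 277 in the control and at 333, 381 and 346 in the knockouts. The 3 knockouts lay close together above the control, and the difference of 0.35 ± 0.26 did not pass (adjusted p = 0.980).

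**Figure D2:**
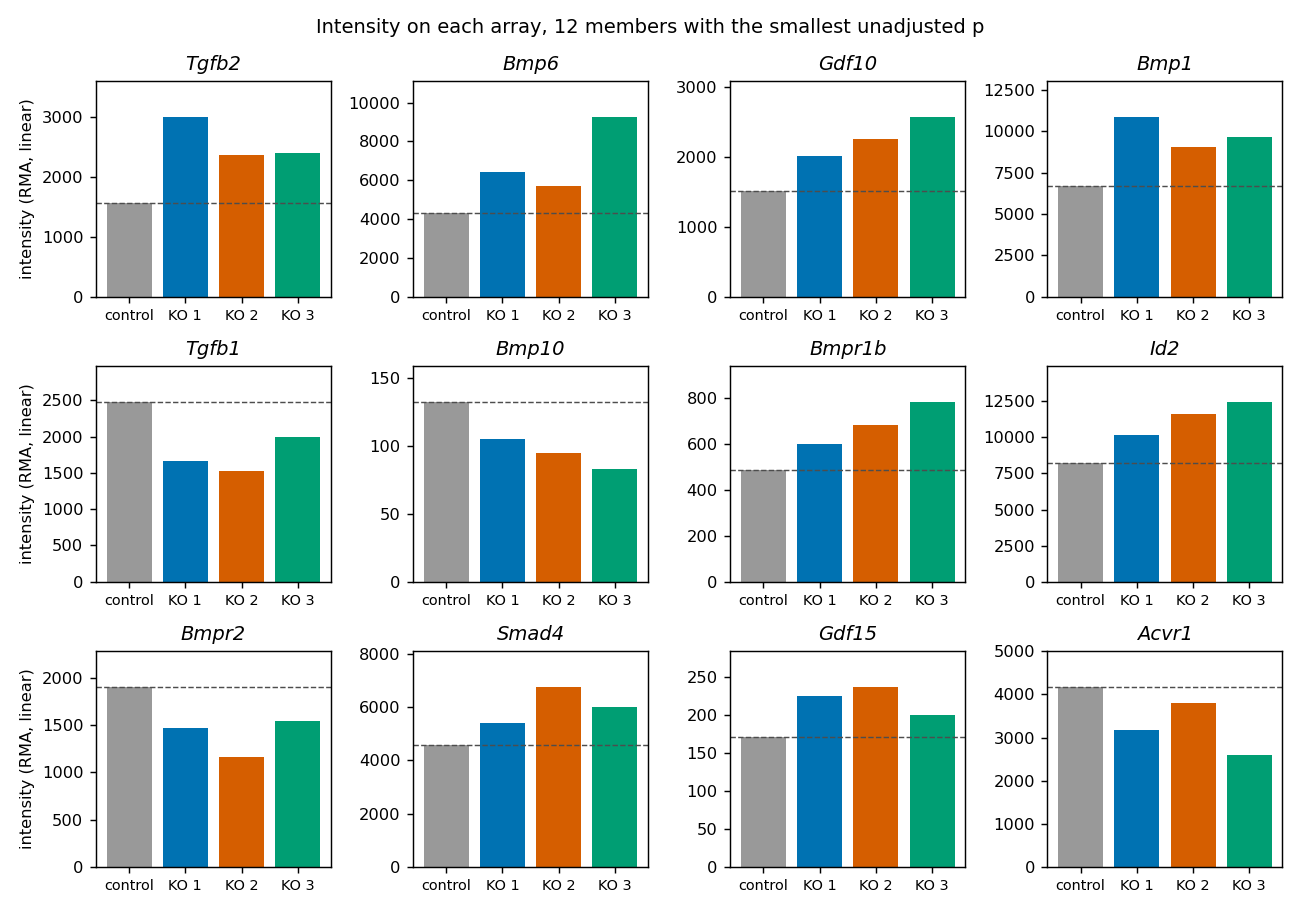
Intensity (RMA, linear scale from 0) on the control array and on the 3 knockout arrays for the 12 members with the smallest unadjusted p, each panel on its own scale with a dashed line at the control. The control lies outside the range of the knockouts in all 12, which choosing members by p favours. Of all transcripts, 25.6% had all 3 knockouts above the control and 24.1% had all 3 below it. None of the 12 passed, and Tgfb2 runs from 1570 in the control to 3001 in knockout replicate 1.

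Of the 10 BMP ligands, 5 had differences above 0 and 5 below, with a median of 0.02. Bmp6 (NM_007556), a ligand best known for raising hepcidin in the liver, had the greatest difference of them. Its intensity was 4314 in the control and 6409, 5701 and 9256 in the knockouts. All 3 knockouts lay above the control, and replicate 3 lay well above the other two. The difference was 0.69 ± 0.31, or 1.62-fold, with an interval of -0.01 to 1.39 (adjusted p = 0.785). Bmp10 (NM_009756), a ligand of the developing heart, was dim on this array, at 132 in the control and 105, 94.9 and 82.9 in the knockouts. All 3 knockouts were lower, by -0.49 ± 0.27 in log2 (adjusted p = 0.884), and no background values were used here to say whether such levels are signal.

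Bmp4, which in the mouse embryo induces the germ line and in the juvenile testis comes from somatic cells, was at 1910 in the control and at 1697, 1372 and 1791 in the knockouts. The 3 knockouts lay slightly below the control, with a difference of -0.25 ± 0.27. Bmp7, a ligand known for kidney development, was at 3281 in the control and at 2856, 2379 and 3915 in the knockouts, on both sides of the control. Bmp8a and Bmp8b are close copies whose products maintain spermatogenesis in the mouse, and how far the probes tell them apart is uncertain. Bmp8a was at 327 in the control and at 383, 408 and 333 in the knockouts, all above the control, with a difference of 0.19 ± 0.26. Bmp8b was at 705 in the control and at 434, 431 and 957 in the knockouts. Replicates 1 and 2 were nearly equal and lay below the control, and replicate 3 lay above it, so the knockouts spanned 1.15 on the log2 scale, the widest span of any member. The difference of Bmp8b was -0.32 ± 0.42 over the 3 knockouts but -0.13 without replicate 1, -0.13 without replicate 2 and -0.70 without replicate 3, and it did not pass in any of these (limma, adjusted p = 0.438 without replicate 3).

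Bmp5, Bmp2 and Bmp3 had differences of 0.18 ± 0.33, 0.34 ± 0.30 and 0.19 ± 0.33. Bmp5 was at 1165 in the control and at 1378, 962 and 1718 in the knockouts, on both sides of the control. Bmp2, an inducer of bone, was at 197 in the control and at 196, 261 and 303 in the knockouts, with replicate 1 level with the control. Bmp3, which opposes other BMPs in bone, was at 249 in the control and at 226, 259 and 396 in the knockouts, with replicate 3 the highest. In all 3 genes knockout replicate 3 was the highest array. Bmp15, an oocyte factor encoded on the X chromosome, was dim at 93.5 in the control and 72.2, 83.7 and 71.5 in the knockouts, a difference of -0.31 ± 0.26.

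Of the 8 measured GDF ligands, 7 had differences above 0, beside 50.6% of all transcripts, with a median of 0.12. Gdf1, Gdf3, Gdf7 and Gdf9 changed direction when 1 knockout array was left out. Gdf10 (NM_145741), a relative of Bmp3 that is also called BMP3b, had the greatest difference of the GDF ligands. It was at 1512 in the control and at 2014, 2255 and 2576 in the knockouts. All 3 knockouts lay above the control, with a difference of 0.59 ± 0.27 and an interval of -0.01 to 1.18 (adjusted p = 0.786). Gdf15, a cytokine of cell stress, was at 170 in the control and at 225, 236 and 200 in the knockouts, all above the control. Its difference was 0.37 ± 0.26 (adjusted p = 0.968). Gdf6, a factor of joint and eye development, was at 118 in the control and at 140, 155 and 151 in the knockouts, also all above the control, with a difference of 0.34 ± 0.25.

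Gdf9, best known as an oocyte factor, was at 655 in the control and at 593, 735 and 656 in the knockouts. The control lay inside that range, and the difference was 0.01 ± 0.26, with an interval of -0.58 to 0.59. Gdf1, which in the mouse shares a transcript with the ceramide synthase gene Cers1, was at 317 in the control and at 317, 263 and 331 in the knockouts, a difference of -0.07 ± 0.27. Gdf3, a factor of pluripotent cells, differed by 0.10 ± 0.32, and Gdf5, a joint factor, by 0.15 ± 0.26. Gdf7, a factor of the dorsal spinal cord, differed by 0.09 ± 0.32. Gdf3, Gdf5, Gdf6 and Gdf15 were among the 11 members in the dimmest 25% of all transcripts by mean level, with Bmp2, Bmp10, Bmp15, Nog, Grem1, Lefty2 and Bambi.

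The 8 receptors had a median difference of -0.17, with 3 above 0 and 5 below, and none passed. Bmpr1b (NM_007560), a type I receptor for BMPs and GDFs, was at 486 in the control and at 601, 682 and 784 in the knockouts. All 3 knockouts were above the control, with a difference of 0.49 ± 0.27, or 1.41-fold, and an interval of -0.10 to 1.09 (adjusted p = 0.890). Bmpr2 (NM_007561), the type II BMP receptor, was at 1898 in the control and at 1463, 1164 and 1541 in the knockouts. All 3 were below the control, with a difference of -0.46 ± 0.27 and an interval of -1.07 to 0.15 (adjusted p = 0.928). Acvr1, a type I receptor also called ALK2 that serves BMPs and anti-Mullerian hormone, was at 4167 in the control and at 3163, 3811 and 2593 in the knockouts. These too lay below the control, with a difference of -0.40 ± 0.29 (adjusted p = 0.972). Bmpr1a, a further BMP type I receptor in the list, was at 5979 in the control and at 4631, 5935 and 5980 in the knockouts. Replicates 2 and 3 were level with the control, and the difference was -0.13 ± 0.27.

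On the TGF-beta and activin side, Tgfbr1, the type I receptor for TGF-beta, was at 5822 in the control and at 7968, 7004 and 6065 in the knockouts. All 3 lay above the control, replicate 3 only slightly, with a difference of 0.26 ± 0.27. Tgfbr2, the type II receptor, had 2 transcripts on the array, and NM_029575 stood for the gene. It was at 2536 in the control and at 2897, 1738 and 2102 in the knockouts, on both sides of the control. Its difference was -0.21 ± 0.32, and that of the other transcript, NM_009371, was -0.30 ± 0.27. Tgfbr3, the co-receptor betaglycan that also binds inhibin, was at 5890 in the control and at 4555, 6560 and 7362 in the knockouts, a difference of 0.04 ± 0.31. Acvr1b, the activin and Nodal type I receptor, was at 5486 in the control and at 4633, 4962 and 4427 in the knockouts. The knockouts were close together below the control, with a difference of -0.23 ± 0.25.

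The 6 measured Smads had a median difference of 0.06, and every one of their intervals lay inside 2-fold either way. Smad1, a BMP-branch Smad, was at 2232 in the control and at 2494, 2256 and 2003 in the knockouts, on both sides of the control, with a difference of 0.01 ± 0.26 and an interval of -0.58 to 0.59. Smad5, its partner in that branch, was at 2685 in the control and at 3894, 2862 and 3157 in the knockouts. All 3 lay above the control, with a difference of 0.29 ± 0.28. Smad2, of the TGF-beta and activin branch, was at 4202 in the control and at 3838, 4329 and 4549 in the knockouts, a difference of 0.01 ± 0.26 with an interval of -0.57 to 0.58. Smad3, of the same branch, was at 7872 in the control and at 6977, 7081 and 5685 in the knockouts. All 3 lay below the control, with a difference of -0.27 ± 0.27. Smad4, the partner shared by both branches, was at 4582 in the control and at 5389, 6739 and 6014 in the knockouts, all above it. Its difference of 0.39 ± 0.26, or 1.31-fold, did not pass (limma, adjusted p = 0.962). Smad6, which inhibits the BMP branch and is itself a target of it, was at 446 in the control and at 510, 541 and 399 in the knockouts, a difference of 0.10 ± 0.28.

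The Id genes encode helix-loop-helix proteins that block differentiation factors, and they respond to BMP signals in many cells. Id2 (NM_010496) was at 8237 in the control and at 10153, 11583 and 12442 in the knockouts. All 3 knockouts lay above the control, with a difference of 0.46 ± 0.26, or 1.38-fold, and an interval of -0.12 to 1.05 (limma, adjusted p = 0.906). Id1 was at 924 in the control and at 942, 1008 and 647 in the knockouts, with replicates 1 and 2 slightly above the control and replicate 3 below it. Id3 was at 3337 in the control and at 3643, 3794 and 2883 in the knockouts, in the same arrangement of arrays. The differences of Id1 and Id3 were -0.12 ± 0.31 and 0.03 ± 0.27. The 250 bases before the start of Id2 (RefSeq, GRCm38.p6, chr12:25096093-25096342, minus strand, 5′ to 3′) are shown because Id2 is a target gene. Capitals mark GGCGCC, 231 bases before the start of Id2, the letters of a site that BMP-branch Smads bind at mouse Id1. No window of Id1 itself was found, so Id1 was not searched.
Id2: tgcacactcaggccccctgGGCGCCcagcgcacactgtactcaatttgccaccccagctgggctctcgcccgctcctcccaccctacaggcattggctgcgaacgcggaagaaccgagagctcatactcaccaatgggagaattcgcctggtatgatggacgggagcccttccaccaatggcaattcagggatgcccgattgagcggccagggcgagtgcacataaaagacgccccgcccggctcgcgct
GGCGCC, which reads the same on both strands, was in 8 of the 36 member windows (of Id2, Bmpr1a, Bmpr2, Chrd, Gdf1, Grem1, Smad5 and Tgfbr1) and in 9.59% of all windows. The palindromic Smad-binding letters GTCTAGAC were in 0 of the 36 and in 0.167% of all windows. Such matches describe the sequence, and binding was not tested.

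The secreted inhibitors keep ligands from their receptors, and the 5 of them had a median difference of -0.10. Nog, which encodes the BMP antagonist noggin, was at 176 in the control and at 295, 211 and 193 in the knockouts. All 3 lay above the control and replicate 1 the most, with a difference of 0.38 ± 0.30 (adjusted p = 0.989). Grem1, for gremlin, was at 137 in the control and at 164, 170 and 147 in the knockouts, a difference of 0.22 ± 0.26. Chrd (NM_009893), for chordin, was at 580 in the control and at 525, 558 and 515 in the knockouts. The knockouts agreed closely and lay below the control, with a difference of -0.12 ± 0.25 and an interval of -0.68 to 0.44. Lefty1 and Lefty2, close copies that block Nodal, differed by -0.15 ± 0.31 and -0.10 ± 0.26, and how far the probes tell them apart is uncertain. Bambi, a receptor-like protein without a kinase, was at 78.4 in the control and at 98.5, 86.0 and 94.7 in the knockouts, a difference of 0.24 ± 0.26 at a dim level.

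Bmp1 (NM_009755) is named with the BMPs but encodes a metalloprotease that cleaves procollagens and chordin. Its intensity was 6693 in the control and 10863, 9057 and 9664 in the knockouts. All 3 knockouts lay above the control and close to each other, with a difference of 0.56 ± 0.26, or 1.47-fold, and an interval of -0.02 to 1.13. It did not pass (limma, adjusted p = 0.802).

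Of 50 further genes of the pathway, 48 were measured and none passed at an adjusted p under 0.05, with a median difference of -0.05. Pcsk5 and Pcsk6 were not analysed here. At an unadjusted p under 0.05, 3 were higher and 2 lower in the knockouts, beside 3.15% and 3.27% of all transcripts. Ltbp3 (NM_008520), a matrix protein that holds latent TGF-beta, had the smallest p. It was at 6986 in the control and at 15090, 15483 and 13617 in the knockouts, so the knockouts agreed closely and all lay far above the control. The difference was 1.07 ± 0.26, or 2.11-fold, with an interval of 0.51 to 1.64 (limma, adjusted p = 0.152). With a variance trend in the fit the adjusted p was 0.0295, and over the other alternatives it ran from 0.122 to 0.261.

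Tll1 (NM_009390), a protease related to Bmp1, was at 144 in the control and at 224, 277 and 447 in the knockouts. All 3 were above the control but far apart, with a difference of 1.08 ± 0.36 (adjusted p = 0.478). Its relative Tll2 was at 305 in the control and at 160, 217 and 232 in the knockouts, all below the control, with a difference of -0.61 ± 0.29. Tgfbi, a matrix protein induced by TGF-beta, was at 16710 in the control and at 10314, 8407 and 11345 in the knockouts. All 3 lay below the control, with a difference of -0.75 ± 0.27 (adjusted p = 0.562). Chrdl1, a chordin-like BMP antagonist, was at 2874 in the control and at 1757, 1819 and 2116 in the knockouts, also all below, with a difference of -0.60 ± 0.26 (adjusted p = 0.741). Inha, the inhibin alpha subunit of Sertoli cells, was at 13371 in the control and at 20252, 23316 and 18997 in the knockouts. All 3 lay above the control, with a difference of 0.64 ± 0.26 (adjusted p = 0.698).

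**Figure D3:**
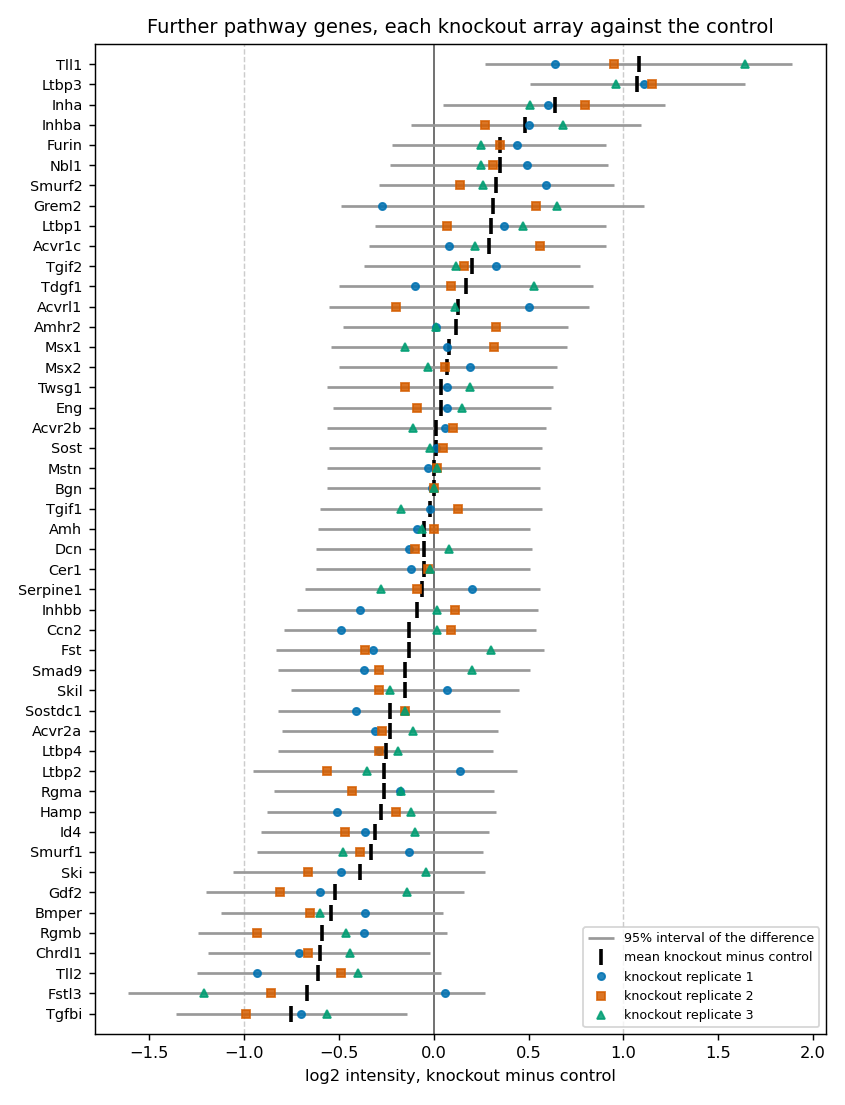
Log2 intensity of each knockout array minus the control array for the 48 further pathway genes measured, ordered by mean difference, with the 95% interval from limma in grey and dashed lines at 2-fold. Tll1 and Ltbp3 stand at the top at 1.08 and 1.07 and Tgfbi at the bottom at -0.75, and none passed the test over all transcripts.

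**Figure D4:**
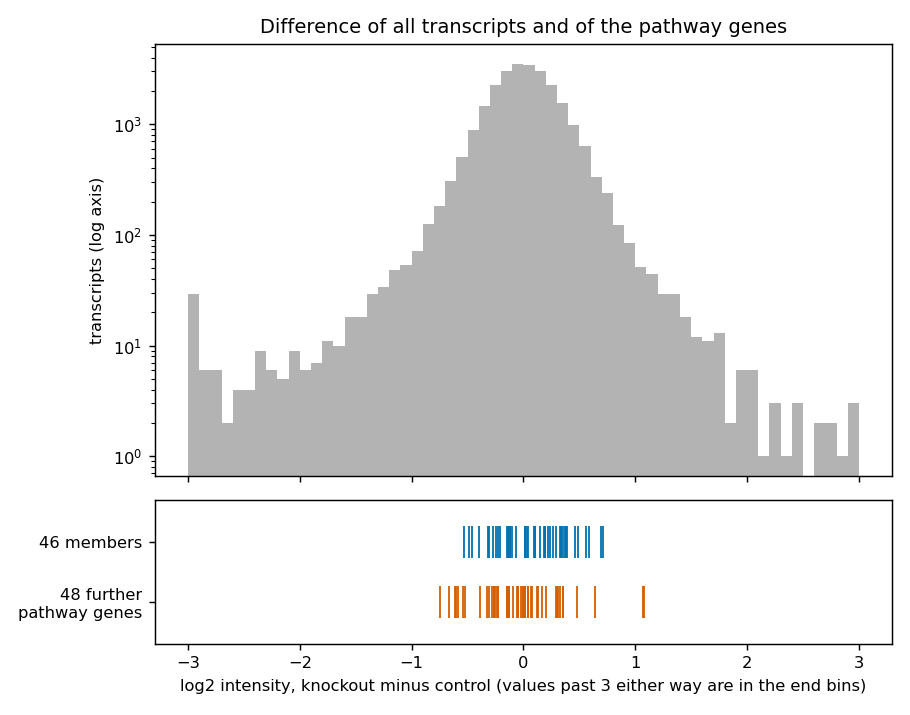
Histogram of the log2 difference, knockout minus control, of all 25631 transcripts in bins on a log count axis, above ticks for the 46 members and the 48 further pathway genes. The members lie between -0.53 and 0.71, in the body of the histogram, and the 168 called transcripts differ by at least 1.35.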

How the data were processed

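RNA from postnatal day 9 testes was labelled with the dye Cy3 for one-colour NimbleGen arrays, per the labels' protocols. The deposited table holds linear intensities per RefSeq transcript, which the authors made with RMA, per the submitters' processing notes. As a method, RMA combines background correction, quantile normalisation and a summary over probes. Its version and settings, the probes and any detection calls are not given in the sources used here. Intensities ran from 23.9 to 65156, with array medians of 1005 to 1011. The number of arrays limits the precision.

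Accessions without version were matched to RefSeq genes of GRCm38.p6, which named 17780 of 25631 transcripts (69.4%). In a list of further genes, 1 older symbol was updated (Ctgf to Ccn2). Log2 intensities were fitted in limma 3.58.1 (R 4.3.3, functions lmFit and eBayes, knockout minus control, two-sided, Benjamini-Hochberg over all transcripts), which left 2 residual degrees of freedom plus 7.97 from the prior. The spread came from the knockouts, and the single control array is taken to vary as they do. Intervals at 95% come from the moderated fit. The fit was also run on simulated arrays with known changes.

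Every measured member is named. Values on every array are given at least for the 12 members with the smallest p, those at least 1.5-fold apart on all knockout arrays and the highest-level member of each role, and for the 6 further genes with the smallest p. The members and lists were chosen with earlier results of these data known. As alternatives, knockout arrays were left out in turn, and others normalised or centred again, removed the dimmest 25% of transcripts, changed the variance prior, averaged transcripts or relaxed the threshold.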

Additional observations from a re-analysis of the deposited data

How the results depend on the processing

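No member passed under any alternative, at an adjusted p under 0.05 or, with all arrays, under 0.10, and the lowest adjusted p of a member was 0.429, for Tgfb2 without knockout replicate 3. Of the 46 members, 34 kept their direction throughout, and none of the 46 changed direction under the other normalisations or variance priors, nor any of the 35 left after the filter on dim transcripts. The other 12 changed direction when 1 knockout array was left out, with ranges of the log2 difference of -0.05 to 0.36 for Bmp3, -0.02 to 0.40 for Bmp5, -0.33 to 0.03 for Bmp7, -0.14 to 0.03 for Gdf1, -0.11 to 0.27 for Gdf3, -0.10 to 0.27 for Gdf7, -0.07 to 0.08 for Gdf9, -0.24 to 0.08 for Id1, -0.04 to 0.16 for Id3, -0.07 to 0.09 for Smad1, -0.04 to 0.08 for Smad2 and -0.11 to 0.24 for Tgfbr3. The members' median difference of 0.10 was 0.03 with the dimmest 25% of transcripts removed and 0.03 to 0.11 with 1 knockout array left out. Over all transcripts, the 40 called higher were 75 at an adjusted p under 0.10 and 69 with a variance trend. They were 58 to 62 with 1 knockout array left out, the 62 without replicate 3. With a robust variance prior they were 60, and with the dimmest 25% of transcripts removed they were 53. The cause of these shifts was not tested. Dmrt1 did not pass under any alternative. No paired analysis was possible because only 1 control array exists and no label pairs it with a knockout array; every alternative kept it. No measure of signal over background was used here, so for the dim members it is not known how much of the level is signal.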
